A study of Mus musculus with 4 samples.

Results

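Amino acids cross the plasma membrane through carriers of several solute carrier (Slc) families, and the RNA of those carriers was measured here in CD24+ cells from the livers of C57BL/6 mice. The members are the genes of the Slc1, Slc3, Slc6, Slc7, Slc36, Slc38 and Slc43 families with 10 or more raw counts in at least 2 of the 4 libraries, other than Slc7a11. Of 63 rows with such names, 33 met this rule, out of 21878 rows in the tables. Of the 30 rows left out, 11 were at 0 in all 4 libraries and the other 19 never exceeded 9 counts. The label of amino acid transporters does not hold for every member. Slc7a6os encodes a nuclear protein and was caught by its name, Slc6a8 carries creatine and Slc43a3 carries purine nucleobases. A further 3 members, Slc36a1, Slc38a7 and Slc38a9, act largely at the lysosome.

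The 2 HACY libraries came from samples of mice injected 3 times a week for 6 weeks with a cocktail of small molecules. Its components were Y-27632, A-83-01, which blocks kinases of the TGF-beta receptor, and CHIR99021, which blocks glycogen synthase kinase. The 2 CCL4 libraries came from mice dosed with the liver toxin carbon tetrachloride, dissolved in olive oil, at 2 ml/kg on 2 occasions per week, also for 6 weeks. Mice were 8 weeks old at injection, the cells were sorted on magnetic columns for CD24, and the labels call them hepatocytes. There was no untreated group, so each difference is HACY relative to CCL4, and the labels leave unclear whether HACY mice also received carbon tetrachloride. The labels do not give the animals behind each replicate, so the p-values reflect only spread among these samples, which may be technical. The tables summed to 18467299 to 19314219 counts per library. Cd24a, the gene of the sorted protein, had 20.6 ± 1.80 CPM (counts scaled to library size with TMM factors) in HACY and 29.3 ± 12.2 CPM in CCL4 (SD, n = 2; log2 -0.51, edgeR adjusted p = 0.279). Its log2 value was -0.88 without CCL4 replicate 1 (edgeR adjusted p = 0.0290) and -0.0033 without CCL4 replicate 2 (edgeR adjusted p = 0.990), so the difference lay in CCL4 replicate 2 alone.

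As background, Slc7 light chains reach the cell surface only when bound to a heavy chain of the Slc3 family, and they work as exchangers of amino acids. Slc38 and Slc6 carriers use the sodium gradient to load the cell, and Slc43 carriers let large neutral amino acids move by facilitated diffusion. In liver, hepatocytes take up alanine and glutamine for the urea cycle and for glucose synthesis, while macrophages take up arginine, glutamine and leucine when activated.

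Of the 33 members, all of which entered the edgeR quasi-likelihood test over 13428 genes, 5 rose in HACY and 1 fell at a Benjamini-Hochberg adjusted p below 0.05. The rises were Slc7a8, Slc7a7, Slc3a1, Slc43a2 and Slc6a12, and the fall was Slc6a19. Rises made up 15.2% of the members, beside 8.19% of all tested genes, and the fall 3.03%, beside 3.54%. The median log2 fold change of HACY over CCL4 was 0.11 over the members and -0.01 over all tested genes. Both HACY libraries lay above both CCL4 libraries for 15 members (45.5%, beside 30.7% of all tested genes) and below them for 6 (18.2%, beside 30.1%). Together these were 63.6% of the members, a share near the 60.8% of all tested genes. Slc1a3 is among the 15 and in the median, although it reached 10 counts in the HACY libraries only. Because it entered through the group where it is high, its place among the 15 is a description. Most members differed little: 21 had a log2 fold change smaller than 0.5 in size, 63.6% of the members against 69.0% of all tested genes. None of the 10 members with the highest level per transcript length was among the 6 called. In these bulk libraries, fewer cells of a type and less RNA per cell cannot be told apart.

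**Figure D1:**
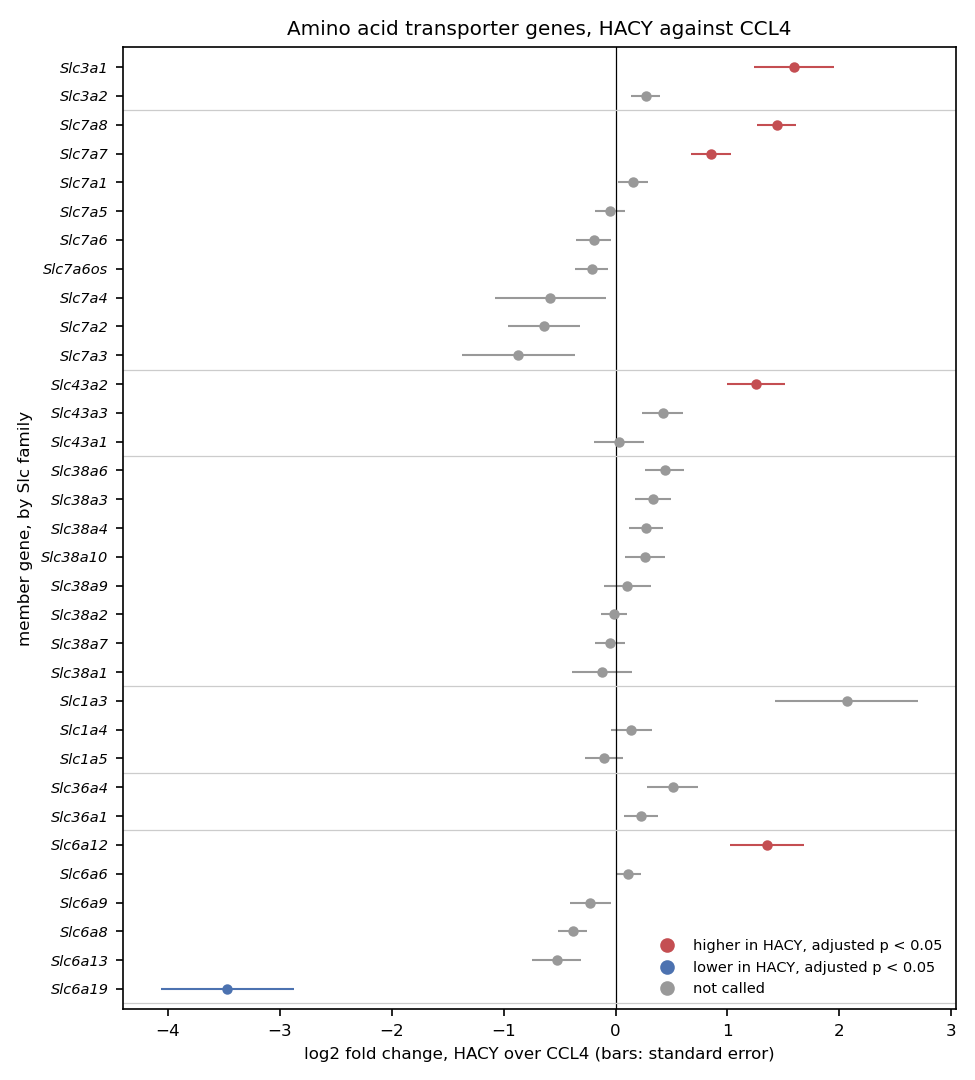
Log2 fold change of HACY over CCL4 (x axis) with its standard error for the 33 members, grouped by Slc family (y axis), with colour marking an edgeR adjusted p below 0.05. Called genes stand at 0.86 to 1.60 for the 5 rises and at -3.47 for Slc6a19, while Slc38 members lie between -0.12 and 0.44.

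Promoters of selected members are shown here, taken from RefSeq with the build GRCm38.p6. Those of the called members Slc3a1, Slc43a2 and Slc6a12, which hold no copy of the motif named below, are not shown. Each window runs from 250 bases before to 50 bases after a transcript start. Capitals mark the amino acid response motif TGATGNAA, read on both strands, which factors of the ATF4 and C/EBP families bind at genes induced by amino acid shortage. Slc7a8 (chr14:54781837-54782136, minus strand) and Slc7a7 (chr14:54417895-54418194, minus strand, the first of 5 windows) are the light chains that rose, Slc6a19 (chr13:73692587-73692886, minus strand) is the gene that fell, and Slc1a4 (chr11:20332664-20332963, minus strand) is the only other member with the motif.
Slc7a8: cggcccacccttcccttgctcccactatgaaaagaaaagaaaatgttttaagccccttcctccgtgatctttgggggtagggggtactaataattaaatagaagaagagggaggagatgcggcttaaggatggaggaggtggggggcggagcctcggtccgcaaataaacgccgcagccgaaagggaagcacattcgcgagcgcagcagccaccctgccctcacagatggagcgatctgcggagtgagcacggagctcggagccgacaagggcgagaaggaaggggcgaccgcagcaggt
Slc7a7: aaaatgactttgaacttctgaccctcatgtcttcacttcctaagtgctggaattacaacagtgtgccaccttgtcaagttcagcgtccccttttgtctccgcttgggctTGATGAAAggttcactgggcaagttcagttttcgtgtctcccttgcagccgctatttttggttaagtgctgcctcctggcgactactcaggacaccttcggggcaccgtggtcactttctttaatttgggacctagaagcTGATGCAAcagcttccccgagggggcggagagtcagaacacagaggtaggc
Slc6a19: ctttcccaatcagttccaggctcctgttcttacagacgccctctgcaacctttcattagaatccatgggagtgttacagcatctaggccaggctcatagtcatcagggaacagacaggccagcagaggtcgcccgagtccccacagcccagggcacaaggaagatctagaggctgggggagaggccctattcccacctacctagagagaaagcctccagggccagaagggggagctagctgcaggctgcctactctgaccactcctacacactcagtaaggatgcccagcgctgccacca
Slc1a4: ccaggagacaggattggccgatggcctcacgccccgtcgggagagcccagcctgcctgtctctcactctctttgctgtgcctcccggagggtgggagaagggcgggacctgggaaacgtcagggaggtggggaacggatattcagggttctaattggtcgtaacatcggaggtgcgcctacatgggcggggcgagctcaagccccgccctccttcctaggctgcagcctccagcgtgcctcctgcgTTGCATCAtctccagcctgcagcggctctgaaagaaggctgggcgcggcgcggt
Windows were found for 23 members, and 2 of them, Slc7a7 and Slc1a4, held the motif. By windows this was 3 of the members' 40 (7.5%), beside 3.97% of all 32851 windows. Slc7a7 held it in 2 of its 5 windows, which share the copy TGATGCAA. Slc1a4 held it on the opposite strand as TTGCATCA. A match of letters is a description and was not tied to binding. Slc7a7 rose, and Slc1a4 had a log2 fold change of 0.14 (edgeR adjusted p = 0.650).

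The heavy chain and its light chains form the most abundant system among the members. Slc3a2, the heavy chain that carries light chains to the surface, had the highest level of all members, with 92.2 and 84.8 FPKM (fragments scaled to transcript length and depth, as deposited) in HACY and 85.3 and 70.9 FPKM in CCL4. Its log2 fold change of 0.27 (SE 0.13) did not pass the test (edgeR adjusted p = 0.206), although the HACY libraries lay above both CCL4 libraries in CPM. Slc7a8, a light chain that exchanges neutral amino acids large and small (chromosome 14, 54722209 to 54781946, GRCm38), had 161 and 125 CPM in HACY, against 47.3 and 57.9 CPM in CCL4. The groups did not overlap, and the lowest HACY library stood above the highest CCL4 library. This was a 2.72-fold rise (log2 1.44, SE 0.17, edgeR adjusted p = 0.00390), and it passed the threshold in each of 14 other settings, with log2 values of 1.22 to 1.62.

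Slc7a7, a light chain that exports cationic amino acids in return for neutral ones (chromosome 14, 54369442 to 54417780), had 52.9 and 49.7 CPM in HACY, against 24.5 and 32.1 CPM in CCL4. Its groups did not overlap, and the rise was 1.81-fold (log2 0.86, SE 0.18, edgeR adjusted p = 0.0258). Without HACY replicate 1 or HACY replicate 2 the log2 values were 0.80 and 0.90. The call was lost in both fits, each of which left 1 HACY library. Slc7a7 overlaps Oxa1l on the other strand by 232 bases, and Oxa1l, a mitochondrial insertase, had a log2 fold change of -0.020 (edgeR adjusted p = 0.939). The genes of Slc7a7 and Slc7a8 lie on the same strand of chromosome 14, with 304428 bases between them.

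The remaining light chains among the members did not pass the test. Slc7a5, the exchanger of large neutral amino acids such as leucine, had 22.6 and 21.1 FPKM in HACY and 22.2 and 26.6 FPKM in CCL4. At a log2 value of -0.045 (SE 0.13, edgeR adjusted p = 0.858) it did not pass, and the libraries of both groups overlapped. Slc7a5 lies opposite the annotated gene Gm20388 over 26545 bases, and whether counting used strand is not given in the sources used here. Slc7a6, which like Slc7a7 exchanges cationic for neutral amino acids, had 42.5 and 37.8 CPM in HACY and 42.4 and 49.6 CPM in CCL4 (log2 -0.20, edgeR adjusted p = 0.449).

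The make-up of the light chain RNA among the members was compared within each library, a comparison chosen after the values were seen. Summed over Slc7a5, Slc7a6, Slc7a7 and Slc7a8, it came to 68.7 and 60.3 FPKM in HACY and to 46.0 and 55.9 FPKM in CCL4. Slc7a8 made up 31.2% and 28.2% of that sum in HACY, against 14.8% and 15.2% in CCL4. Slc7a5 made up 34.0% ± 1.46 in HACY, against 47.9% ± 0.365 in CCL4 (SD, n = 2). Within a library, Slc7a8 stood at 0.945 and 0.805 of the FPKM of Slc7a5 in HACY, against 0.307 and 0.319 in CCL4. Slc7a7 stood at 1.95 and 1.98 times the FPKM of Slc7a6 in HACY, against 0.824 and 0.942 times in CCL4. Slc3a2 FPKM divided by the light chain sum gave 1.34 and 1.40 in HACY, between the 1.85 and 1.27 of CCL4. In exact permutation tests over the libraries (two-sided), each of these differences gave p = 0.333 except the last, which gave p = 1.0, and no p below 0.333 is possible with 2 against 2. Slc7a11, another light chain of Slc3a2, is outside these sums and went the other way. It had 14.4 and 11.5 FPKM in HACY, against 36.8 and 35.8 FPKM in CCL4. The sums, the shares and the Slc3a2 ratio therefore hold for the listed genes, not for all light chain RNA.

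**Figure D2:**
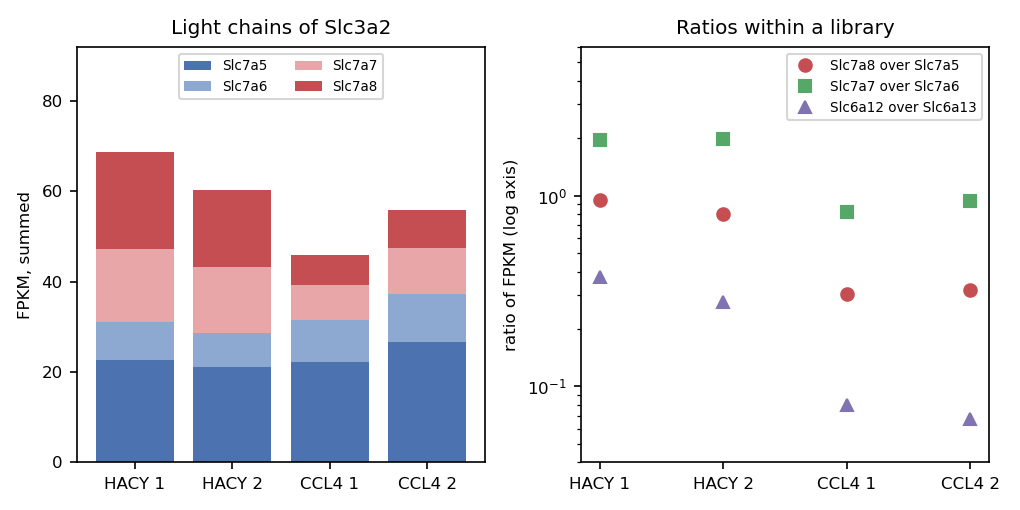
Left, summed FPKM (y axis) of 4 light chains of Slc3a2, without Slc7a11, in each library (x axis, HACY before CCL4), stacked by gene. Right, ratios of FPKM between pairs of carriers within each library on a log axis, where Slc7a8 over Slc7a5 stands at 0.945 and 0.805 in HACY and at 0.307 and 0.319 in CCL4.

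Slc3a1, the second heavy chain, which carries Slc7a9 in kidney and intestine (chromosome 17, 85028376 to 85064236), had 7.70 and 14.1 CPM in HACY, against 3.24 and 3.94 CPM in CCL4. The HACY libraries were both higher, HACY replicate 2 by the wider margin. The rise was 3.03-fold (log2 1.60, SE 0.36, edgeR adjusted p = 0.0323). Leaving out HACY replicate 2 gave a log2 value of 1.10 and leaving out CCL4 replicate 1 gave 1.46. The call was lost in both fits, each of which left 1 library in a group. In limma-voom and on log2(FPKM + 1) it also missed the threshold (adjusted p = 0.0501 and 0.0519). Slc7a9, its light chain, had 4 and 4 raw counts in HACY and 3 and 0 in CCL4, below the rule. Even where higher, Slc3a1 stood at 0.0260 and 0.0468 of the FPKM of Slc3a2 in HACY, and at 0.0120 and 0.0188 in CCL4. Slc3a1 overlaps Prepl on the other strand by 767 bases, and Prepl, a serine hydrolase gene, had a log2 fold change of -0.067 (edgeR adjusted p = 0.834).

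**Figure D3:**
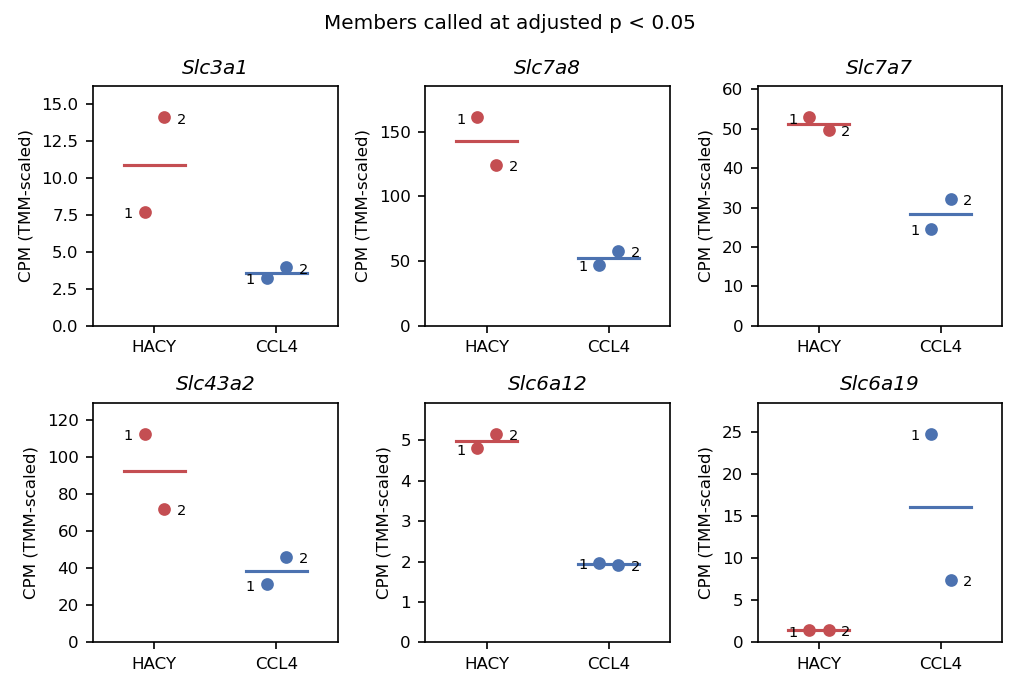
TMM-scaled CPM (y axis, from 0) of the 6 called members in each library, with points numbered by replicate, HACY left of CCL4, and a line at the group mean. The 2 CCL4 points of Slc6a19, at 24.8 and 7.44 CPM, differ by 3.33 times, the widest ratio within any group shown, and both are above the HACY points of 1.42 and 1.48 CPM.

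Among the Slc43 carriers, which move large neutral amino acids without a heavy chain, Slc43a2 rose (chromosome 11, 75531694 to 75577575). It had 113 and 72.2 CPM in HACY, against 31.3 and 46.2 CPM in CCL4. The groups did not overlap, but replicates within both groups differed, by 1.56 times in HACY and 1.47 times in CCL4. The rise was 2.38-fold (log2 1.25, SE 0.26, edgeR adjusted p = 0.0269). The call was lost without HACY replicate 1 (log2 0.89, edgeR adjusted p = 0.0843), without CCL4 replicate 1 (log2 1.00, adjusted p = 0.0668) and on log2(FPKM + 1) (limma adjusted p = 0.0746). Slc43a1, the related carrier, had 11.1 and 12.1 CPM in HACY and 12.4 and 10.3 CPM in CCL4, with overlapping groups (log2 0.030, edgeR adjusted p = 0.947). Slc43a3, the nucleobase carrier, had 95.4 and 83.5 CPM in HACY and 55.7 and 77.8 CPM in CCL4 (log2 0.42, edgeR adjusted p = 0.171). It passed the threshold only without CCL4 replicate 2 (log2 0.68, edgeR adjusted p = 0.0194).

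The cationic amino acid carriers of the Slc7 family, which need no heavy chain, gave no call. Slc7a2, an arginine carrier of liver and of activated macrophages, had 126 and 110 CPM in HACY, against 253 and 116 CPM in CCL4. CCL4 replicate 1 alone was high, and CCL4 replicate 2 lay within the range of the HACY libraries. At a log2 value of -0.64 (SE 0.32) it did not pass (edgeR adjusted p = 0.231). Leaving out CCL4 replicate 2 gave -1.10 (edgeR adjusted p = 0.00499) and leaving out CCL4 replicate 1 gave 0.031 (edgeR adjusted p = 0.899), so that 1 library decided its sign. Slc7a1, the widely expressed arginine carrier, had 74.1 and 73.5 CPM in HACY and 62.5 and 69.9 CPM in CCL4, at a log2 value of 0.16 (edgeR adjusted p = 0.467). By library size alone that value was -0.013. Slc7a3, a carrier of brain and early embryo, was near the detection limit with 15 and 11 counts in HACY and 32 and 21 in CCL4. Slc7a4, which has no established transport activity, had 20 and 40 counts in HACY and 38 and 63 in CCL4. Slc7a6os, the neighbour that is no carrier, had 46.1 and 47.4 CPM in HACY and 58.7 and 49.7 CPM in CCL4 (log2 -0.21, edgeR adjusted p = 0.379).

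All 8 members of the Slc38 family, the sodium-coupled carriers of small neutral amino acids, missed the threshold, with adjusted p from 0.144 for Slc38a6 to 0.950 for Slc38a2 (edgeR). Slc38a2, the system A carrier that cells induce when amino acids run short, differed least of all members by fold change. It had 124 and 128 CPM in HACY and 131 and 124 CPM in CCL4, a log2 fold change of -0.015 (SE 0.12). Slc38a4, the system A carrier characteristic of hepatocytes, had 116 and 152 CPM in HACY and 108 and 114 CPM in CCL4. The groups did not overlap, but at a log2 value of 0.27 (SE 0.15) it did not pass (edgeR adjusted p = 0.283). Slc38a3, the system N carrier of glutamine and histidine, had 70.2 and 89.9 CPM in HACY and 59.3 and 67.7 CPM in CCL4 (log2 0.34, SE 0.16, edgeR adjusted p = 0.215).

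Slc38a10, a family member whose substrate is little known, had 192 and 182 CPM in HACY and 128 and 184 CPM in CCL4. Only CCL4 replicate 1 was low, and without CCL4 replicate 2 its log2 value was 0.55 (edgeR adjusted p = 0.0214), against 0.26 with all libraries (edgeR adjusted p = 0.368). Slc38a7, a lysosomal exporter of glutamine, had 68.7 and 61.6 CPM in HACY and 66.1 and 68.7 CPM in CCL4. Slc38a9, a lysosomal carrier through which arginine is sensed by mTORC1, had 21.7 and 22.5 CPM in HACY and 23.9 and 17.2 CPM in CCL4. Both overlapped between the groups. The log2 fold changes of Slc38a1, a further system A carrier, and Slc38a6, of uncertain substrate, were -0.12 and 0.44. The genes Slc38a1, Slc38a2 and Slc38a4 follow each other on chromosome 15, with 44478 and 295089 bases between them.

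In the Slc1 family, Slc1a5, the exchanger that supplies glutamine, had 40.9 and 34.7 CPM in HACY and 36.9 and 44.2 CPM in CCL4 (log2 -0.10, edgeR adjusted p = 0.735). Slc1a4, its relative for alanine, serine and cysteine, had 20.9 and 25.1 CPM in HACY and 20.4 and 21.3 CPM in CCL4. Groups overlapped for both genes. Slc1a3, a glutamate carrier, was the 1 member that reached 10 counts in HACY only, with 13 and 14 counts in HACY and 3 and 4 counts in CCL4. Because it entered through the group where it is high, its fitted log2 value of 2.07 (edgeR adjusted p = 0.0804) is given as a description, and the other 32 members had 10 or more counts in all 4 libraries. Slc1a2, the glutamate carrier of pericentral hepatocytes, had 7 and 2 counts in HACY and 2 and 9 counts in CCL4, below the rule. In the Slc36 family, Slc36a1, a proton-coupled exporter of the lysosome, had 55.3 and 47.0 CPM in HACY and 43.6 and 43.7 CPM in CCL4 (log2 0.23, edgeR adjusted p = 0.349). Slc36a4, a related carrier of proline and tryptophan, had 21.4 and 17.2 CPM in HACY and 11.7 and 15.4 CPM in CCL4 (log2 0.51, edgeR adjusted p = 0.181).

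The Slc6 family held both a rise and the only fall. Slc6a19, the sodium-coupled carrier of neutral amino acids of intestine and kidney (chromosome 13, 73679745 to 73704865), had 1.42 and 1.48 CPM in HACY, against 24.8 and 7.44 CPM in CCL4. In raw counts these were 26 and 26 in HACY and 490 and 151 in CCL4. Both HACY libraries were far lower, and the CCL4 libraries differed from each other by 3.33 times. This was an 11.1-fold difference in size (log2 -3.47, SE 0.59, edgeR adjusted p = 0.0144). The log2 value was -2.36 without CCL4 replicate 1 and -4.09 without CCL4 replicate 2, both still called. Without HACY replicate 1 or HACY replicate 2 it was -3.45 and -3.50, near the value with all libraries. The call was lost in both fits, each of which left 1 HACY library and called fewer genes lower over all genes. Limma-voom gave an adjusted p = 0.0553. Antisense to it lies Slc6a19os, with 1 and 0 counts in HACY and 0 and 0 counts in CCL4.

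Tmem27, which encodes collectrin, the protein that brings the Slc6a19 carrier to the surface in kidney, had 0 counts in all 4 libraries. A count of 0 allows up to 3 counts, which is 0.155 to 0.162 CPM, for counting error only. Anpep, an aminopeptidase that associates with the carrier, had 121 ± 18.6 CPM in HACY and 77.7 ± 5.45 CPM in CCL4 (SD, n = 2), the only rise among 5 tested partner genes, with no fall (log2 0.64, edgeR adjusted p = 0.0358). Leaving out HACY replicate 1 or CCL4 replicate 1, or scaling by library size alone, were among 6 of 14 other settings that ended that call (edgeR adjusted p = 0.306, 0.0728 and 0.0726).

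Slc6a12, the betaine and GABA carrier through which cells regulate their volume (chromosome 6, 121343076 to 121365775), had 4.81 and 5.16 CPM in HACY, against 1.97 and 1.92 CPM in CCL4. The replicates lay close together and the groups apart. Raw counts were 88 and 91 in HACY and 39 and 39 in CCL4. The rise was 2.55-fold (log2 1.35, SE 0.33, edgeR adjusted p = 0.0422). That call was lost in 6 of 14 other settings. Among them were leaving out HACY replicate 1, HACY replicate 2 or CCL4 replicate 1, which leaves 1 library in a group. The log2 values on leaving out a library were 1.30 to 1.40. Slc6a13, the GABA and taurine carrier of hepatocytes, is its neighbour on chromosome 6, 5342 bases away, and had the opposite sign. It had 15.7 and 23.0 CPM in HACY, against 27.1 and 28.7 CPM in CCL4, and did not pass (log2 -0.53, SE 0.22, edgeR adjusted p = 0.159). The FPKM of Slc6a12 stood at 0.375 and 0.277 of that of Slc6a13 in HACY, against 0.0800 and 0.0677 in CCL4, with an exact permutation p = 0.333, the smallest that 4 libraries allow.

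Slc6a6, the taurine carrier, and Slc6a8, the creatine carrier, were the most abundant members after Slc3a2 per transcript length. Slc6a6 had 353 and 358 CPM in HACY and 321 and 336 CPM in CCL4, a log2 value of 0.11 (edgeR adjusted p = 0.539) that was -0.057 by library size alone. Slc6a8 had 165 and 186 CPM in HACY, against 240 and 219 CPM in CCL4. Its groups did not overlap and its log2 fold change was -0.38 (SE 0.13), short of the threshold (edgeR adjusted p = 0.0926). It passed by library size alone (log2 -0.56, adjusted p = 0.0275), on log2(FPKM + 1) (limma adjusted p = 0.0428) and without CCL4 replicate 2 (log2 -0.45, edgeR adjusted p = 0.0469). Slc6a9, the glycine carrier, had 19.8 and 17.7 CPM in HACY and 23.2 and 20.7 CPM in CCL4 (log2 -0.22, edgeR adjusted p = 0.454).

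**Figure D4:**
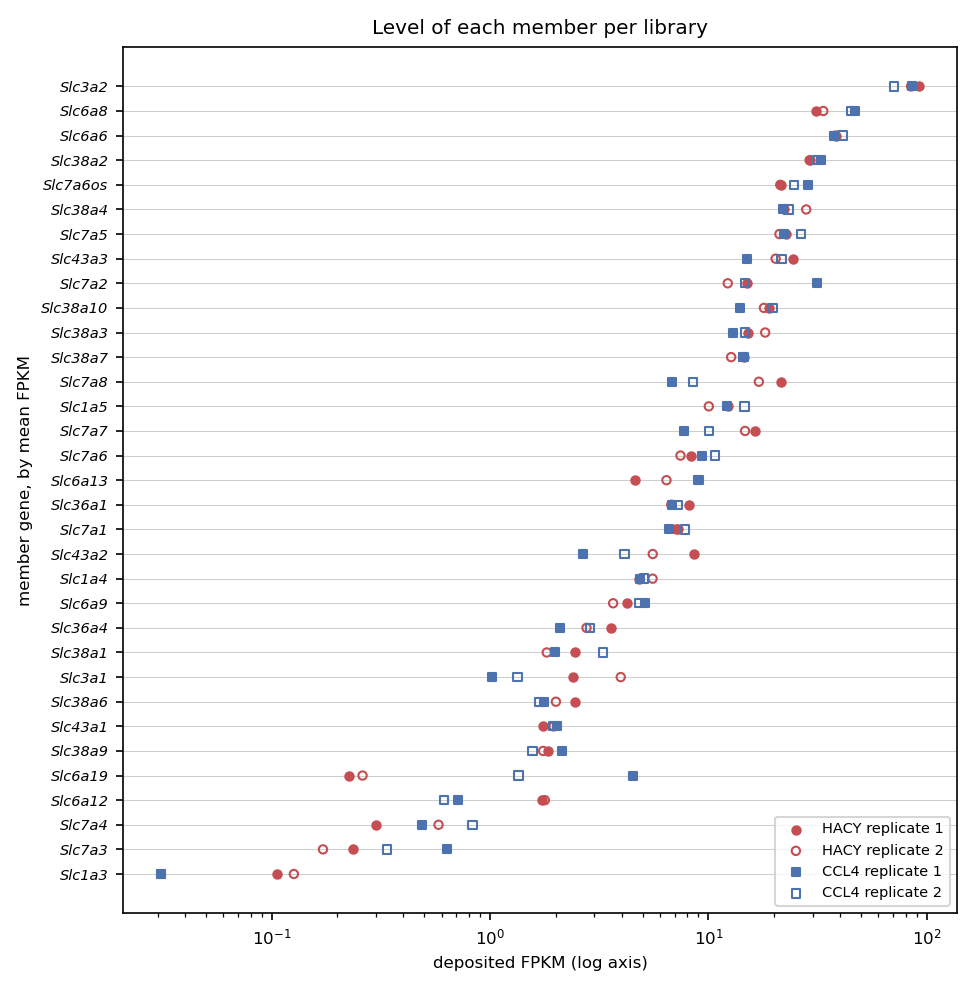
Deposited FPKM (x axis, log scale) of every member (y axis, ordered by mean FPKM) in the 2 HACY and 2 CCL4 libraries. Levels run from a mean of 83.3 FPKM for Slc3a2 to 0.0735 for Slc1a3, and neighbouring genes in this order mostly overlap in their libraries.

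Per transcript length, 15 members had a mean over the 4 libraries of at least 10 FPKM, 15 had between 1 and 10 FPKM and 3 had less than 1 FPKM. Slc3a2 led with 83.3 FPKM, apart from all others. Slc6a8 and Slc6a6 followed with means of 39.1 and 38.8 FPKM, and their order could not be told, since Slc6a8 was below Slc6a6 in both HACY libraries and above it in both CCL4 libraries. Slc38a2 came next at 30.7 FPKM, below every library of Slc6a6. The next places, Slc7a6os (24.0), Slc38a4 (23.8), Slc7a5 (23.1), Slc43a3 (20.3), Slc7a2 (18.3) and Slc38a10 (17.7), each overlapped in their libraries with the next in order.

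The summed share of raw counts in the members differed by less than the spread between replicates. Such shares were taken without the TMM factors used for CPM, so they need not order the libraries as CPM would. The median log2 value of the members was 0.11 with TMM factors and -0.057 by library size alone. Together the members took 0.271% and 0.254% of the counts in HACY and 0.274% and 0.259% in CCL4 (exact two-sided permutation p = 0.667). The Slc6 members took 0.0536% and 0.0549% in HACY, against 0.0683% and 0.0644% in CCL4, and the Slc43 members 0.0210% and 0.0156% in HACY, against 0.0107% and 0.0141% in CCL4 (each exact permutation p = 0.333). The Slc38 members took 0.0617% and 0.0631% in HACY and 0.0593% and 0.0656% in CCL4 (exact permutation p = 1.0). A p of 0.333 is the smallest possible in this design, so no share could have passed a threshold of 0.05.

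Genes of the amino acid response, the programme by which ATF4 raises transporters and synthetases when amino acids are short, fell rather than rose where they were called. Of 28 tested none rose and 5 fell, with a median of -0.23, beside -0.01 for all tested genes. Among all tested genes 8.19% rose and 3.54% fell. Ppp1r15a, which ends the response, had 120 ± 17.1 CPM in HACY and 272 ± 4.45 CPM in CCL4 (SD, n = 2; log2 -1.18, edgeR adjusted p = 0.00360). Gdf15, a stress hormone, had 85.2 ± 6.74 CPM in HACY and 203 ± 60.1 CPM in CCL4 (SD, n = 2; log2 -1.25, edgeR adjusted p = 0.0117). Atf5 and Ddit4 fell by 0.52 and 0.73 on the log2 scale, calls lost without either HACY library, and the fifth gene, named after its values were seen, was Cebpb. Cebpb, a C/EBP factor, had 41.4 ± 5.05 CPM in HACY and 123 ± 75.4 CPM in CCL4 (SD, n = 2; log2 -1.56, edgeR adjusted p = 0.0449), a call lost in 9 of 14 other settings. Among these were DESeq2 (adjusted p = 0.0744) and leaving out HACY replicate 1 or HACY replicate 2 (edgeR adjusted p = 0.415 and 0.440), and without CCL4 replicate 2 its log2 value was -0.74 (edgeR adjusted p = 0.0204). By library size alone the falls numbered 8, where 10.1% of all tested genes were lower. Fewer falls were called without HACY replicate 1 or HACY replicate 2, as over all tested genes, in fits that left 1 HACY library. Also named after the values were seen, Atf4 itself had 339 ± 24.7 CPM in HACY and 379 ± 44.7 CPM in CCL4 (SD, n = 2; log2 -0.16, edgeR adjusted p = 0.466), and Asns, asparagine synthetase, had a log2 value of -0.18 (edgeR adjusted p = 0.388).

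None of 20 cytosolic tRNA synthetase genes passed edgeR's threshold (median 0.10), with 3 higher and 1 lower at an unadjusted p under 0.05. DESeq2 called 1 of them lower (5.6% of all genes then), and library size alone gave 1 fall (10.1% of all genes then). Without CCL4 replicate 2 a rise was called, in a fit that left 1 CCL4 library and called more genes higher over all genes. Of 31 genes through which mTORC1 senses amino acids, only Rragd, a Rag GTPase, was called. It had 7.57 ± 2.37 CPM in HACY and 21.7 ± 1.10 CPM in CCL4 (SD, n = 2; log2 -1.52, edgeR adjusted p = 0.0138), a call lost without HACY replicate 1 (edgeR adjusted p = 0.0550). The list's median was -0.08, and more of its genes were called without CCL4 replicate 2, as over all tested genes. Of 11 enzymes of glutamate and glutamine, 2 rose and none fell. Glul, glutamine synthetase, had 370 ± 26.3 CPM in HACY and 263 ± 9.61 CPM in CCL4, and Gpt, alanine aminotransferase, had 16.2 ± 2.92 CPM in HACY and 8.44 ± 0.0816 CPM in CCL4 (SD, n = 2). Both calls (edgeR adjusted p = 0.0396 and 0.0419) were lost by library size alone and on leaving out HACY replicate 1, HACY replicate 2 or CCL4 replicate 1. Of 12 pericentral genes 5 rose and 1 fell (median 0.77), and of 13 periportal genes 7 rose and none fell (median 0.80). Both are lists of hepatocyte zones, and Cps1 of the periportal list is also among the hepatocyte markers below. Over all tested genes, 8.19% rose and 3.54% fell.

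Markers of cell types moved between the groups as well. All 8 hepatocyte markers were detected, and their CPM summed to 26777 and 33663 in HACY and to 7996 and 6515 in CCL4, with 7 of 8 called higher. The 8 macrophage markers summed to 2457 and 1768 CPM in HACY and to 730 and 1029 CPM in CCL4, and 7 were called higher. Alb made up most of the hepatocyte sum, and the other 7 markers summed to 2772 and 3306 CPM in HACY and to 1025 and 1018 CPM in CCL4. Slc7a8, Slc7a7, Slc43a2, Slc3a1 and Slc6a12 rose beside both lists, and the part of either cell type in these rises was not tested. Endothelial markers summed to 1175 and 894 CPM in HACY and to 385 and 653 CPM in CCL4, with 2 of 6 higher and 1 lower. Of 8 cholangiocyte and progenitor markers 1 was higher, and they summed to 2960 and 4258 CPM in HACY and to 1194 and 2247 CPM in CCL4. Nearly all of that sum was Spp1, which was not called, and the other 7 summed to 122 and 138 CPM in HACY and to 111 and 139 CPM in CCL4.

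Beside the fall of Slc6a19, neutrophil markers summed to 16.3 and 20.2 CPM in HACY and to 20.3 and 192 CPM in CCL4, with 1 of 6 tested called lower. CCL4 replicate 2 stood apart there, whereas Slc6a19 was higher in CCL4 replicate 1 (24.8 CPM) than in CCL4 replicate 2 (7.44 CPM). The part of neutrophils in the Slc6a19 difference was not tested. Stellate markers summed to 571 and 421 CPM in HACY and to 212 and 663 CPM in CCL4, with none of 6 tested called by edgeR, 1 higher at an unadjusted p under 0.05 and 1 higher in DESeq2. B cell markers summed to 53.6 and 41.5 CPM in HACY and to 32.2 and 34.4 CPM in CCL4, with 1 of 6 higher. T and NK cell markers stayed at or below 2.51 CPM in sum and erythroid markers at or below 6.75 CPM.

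**Figure D5:**
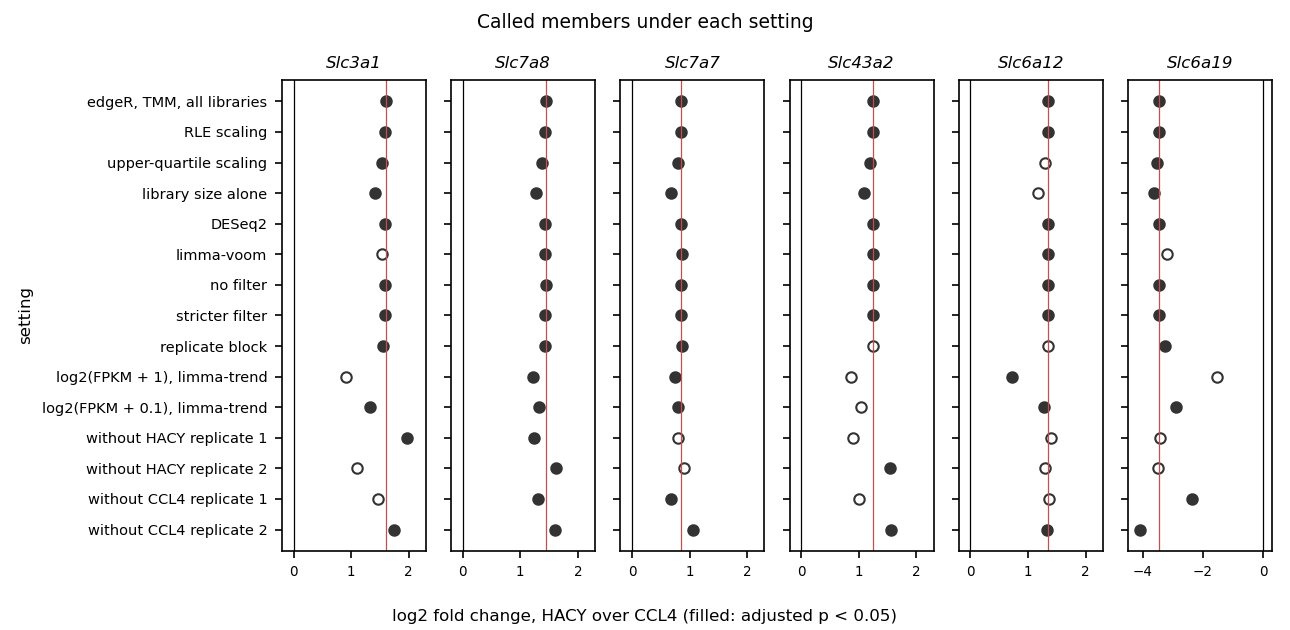
Log2 fold change of HACY over CCL4 (x axis) of the 6 called members in the test with all libraries and in 14 other settings (y axis), filled where the adjusted p is below 0.05. Slc7a8 is filled in every row, and the other 5 have between 2 and 6 open points.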

How the data were processed

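RNA was measured by RNA-seq in 4 libraries, 2 per group. The authors deposited raw counts per gene and FPKM per gene. Trimmomatic, HISAT2, Cufflinks, HTSeq and DESeq and the build mm10 are named, per the submitters' processing notes. Whether counting used strand is not given in the sources used here. Counts were tested with edgeR 4.0.16 (R 4.3.3; TMM scaling, filterByExpr, robust quasi-likelihood, Benjamini-Hochberg over 13428 genes). The method was also run on simulated counts drawn from its own fitted dispersion, with changes of random sign. That run cannot check the scaling between groups. Standard errors were taken from the F statistic. The deposited FPKM values served for levels between genes and, with limma 3.58.1, as alternatives, beside DESeq2 1.42.0. Single quantities used exact permutation tests (SciPy 1.17.1). Locations came from GENCODE M21 on GRCm38. Members and lists were chosen with earlier results of these data known. Called members and the 10 with the highest FPKM were described in full, as were up to 4 called genes per list, and other members with their values after these were seen.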

Additional observations from a re-analysis of the deposited data

How the results depend on the processing

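Over 14 other settings, 400 of 453 values of single members kept their sign and their side of the threshold, 21 lost a call, 7 gained one and 25, in 11 members not called with all libraries, changed sign. By library size alone the signs of Slc1a4 (-0.030), Slc38a9 (-0.067), Slc43a1 (-0.14), Slc6a6 (-0.057) and Slc7a1 (-0.013) changed. Upper-quartile scaling gave -0.030 for Slc43a1. On log2(FPKM + 1) and log2(FPKM + 0.1) Slc38a9 had -0.020 and -0.025, Slc43a1 -0.069 and -0.10, and Slc6a6 -0.035 and -0.036. Leaving out single libraries gave log2 ranges that crossed 0: Slc1a5 -0.23 to 0.035, Slc38a1 -0.43 to 0.29, Slc38a2 -0.056 to 0.029, Slc38a7 -0.14 to 0.028, Slc38a9 -0.11 to 0.36, Slc43a1 -0.10 to 0.18, Slc7a2 -1.10 to 0.031 and Slc7a5 -0.15 to 0.067. The cause was not tested.

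The 5 members called higher became 3 with a replicate block (6.65% of all genes then), 3 on log2(FPKM + 1) (5.99%) and 2 to 7 on leaving out a library. The 1 called lower became 2 by library size alone (10.1% of all genes then), 0 in limma-voom (2.88%), 2 on log2(FPKM + 0.1) (6.04%) and 0 to 3 on leaving out a library. Over all genes, 1100 were higher and 476 lower. These became 856 and 1355 by library size alone, 670 and 664 on log2(FPKM + 1), 673 and 675 on log2(FPKM + 0.1), and 530 to 1840 and 99 to 1207 on leaving out a library, and DESeq2 called 738 lower. The median of all genes was -0.18 by library size alone and -0.10 and -0.11 on the FPKM scales. Counting any gene with a count above 0 gave 52 members in place of 33. Replicate numbers were not shown to pair the samples (correlation of deviations -0.0989), and with the block 893 genes were higher and 331 lower. With the block, Slc43a2 and Slc6a12 lost their calls (edgeR adjusted p = 0.0755 and 0.0791). Slc7a3, Slc7a4 and Slc1a3 had the lowest counts among the members, and the effect of depth on them was not tested. On CPM in place of FPKM, an alternative chosen after seeing the data, the ratio of Slc7a8 to Slc7a5 was 1.66 and 1.39 in HACY, against 0.531 and 0.559 in CCL4, and that of Slc7a7 to Slc7a6 was 1.24 and 1.31 in HACY, against 0.578 and 0.648 in CCL4.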

Other observations

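Among carriers that are not members, Slc7a11, the Slc7 cystine and glutamate exchanger that pairs with Slc3a2 and was left out by name, had 134 and 113 CPM in HACY, against 327 and 299 CPM in CCL4, and fell by 1.34 on the log2 scale (SE 0.14, edgeR adjusted p = 0.00231). The groups did not overlap. Of 17 other amino acid and peptide carriers 2 rose and 2 fell, beside 8.19% and 3.54% of all tested genes. Their median log2 value was 0.09. Slc15a3, a lysosomal carrier of histidine and small peptides, had 161 ± 39.8 CPM in HACY and 62.4 ± 7.31 CPM in CCL4 (SD, n = 2; log2 1.37, edgeR adjusted p = 0.00653), while its relative Slc15a4 had 26.9 ± 1.67 CPM in HACY and 44.2 ± 1.22 CPM in CCL4 (SD, n = 2; log2 -0.71, edgeR adjusted p = 0.0282). Slc29a3, a nucleoside carrier of lysosomes, rose by 1.16 and Slc25a44, a mitochondrial carrier of branched-chain amino acids, fell by 0.70 on the log2 scale (edgeR adjusted p = 0.0109 and 0.0192). Without HACY replicate 1 the calls of Slc29a3, Slc25a44 and Slc15a4 were lost (edgeR adjusted p = 0.0624, 0.161 and 0.139). Without HACY replicate 2 those of Slc25a44 and Slc15a4 were lost (edgeR adjusted p = 0.0699 and 0.221).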
